A study of Mus musculus with 2 samples.

Results

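The miR-129 and miR-135 families are small groups of microRNA genes that have been tied to synaptic scaling and long-term depression. Their members, 5 of the 2202 microRNA genes counted, were taken by symbol in GENCODE annotation M21 and are Mir129-1, Mir129-2, Mir135a-1, Mir135a-2 and Mir135b. Both libraries came from one group, tissue labelled layer of hippocampus from B6CASTF1/J males at 2 months of age, as biological replicates 1 and 2. B6CASTF1/J animals are the hybrid offspring of a C57BL/6J and a CAST/EiJ parent and carry no treatment or engineered allele in the labels. The labels give 2 biosamples under one donor entry, and nothing says that they came from separate animals. P-values and intervals below come from read counts and cover counting error only, while the SD gives the spread between the libraries, which may be technical. No second condition was measured, and the comparisons run between genes and between replicates.

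MicroRNAs are cut from a hairpin precursor into products from its 5p and 3p arms, and a loaded product pairs with messenger RNAs mainly through its seed, bases 2 to 8 counted from the 5′ end. In neurons, miR-129-5p is known to repress the potassium channel mRNA Kcna1 and to take part in the downscaling of excitatory synapses. The miR-135 family is known to act on complexin mRNAs during long-term depression that depends on NMDA receptors, and on transcripts of serotonin signalling.

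The mature products are shown because identity between loci decides which reads could be assigned to one gene. All 5 members had a RefSeq hairpin (GRCm38.p6), and the table listed 8 mature entries under 6 names. Seeds are in capitals, and sequences run 5′ to 3′.

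miR-129-5p: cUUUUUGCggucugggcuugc

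miR-129-2-3p: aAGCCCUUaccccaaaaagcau

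miR-135a-5p: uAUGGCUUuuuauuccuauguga

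miR-135a-1-3p: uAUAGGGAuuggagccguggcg

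miR-135a-2-3p: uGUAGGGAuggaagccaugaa

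miR-135b-3p: aUGUAGGGcuaaaagccauggg

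The 3p arm of Mir129-1 and the 5p arm of Mir135b had no mature entry. Each family had 1 listed 5p product, with seed UUUUUGC for miR-129-5p and AUGGCUU for miR-135a-5p. Each of the 4 listed 3p products had a seed of its own. The miR-129-5p sequence was contained in 2 of the counted hairpins, Mir129-1 and Mir129-2, and the miR-135a-5p sequence in 2, Mir135a-1 and Mir135a-2. Each 3p product was contained in 1 counted hairpin.

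The hairpins show how far this identity runs. Capitals mark every stretch made of 21 nt windows that also occur in another counted hairpin.

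Mir129-1: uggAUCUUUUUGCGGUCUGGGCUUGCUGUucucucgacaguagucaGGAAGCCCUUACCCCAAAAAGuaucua

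Mir129-2: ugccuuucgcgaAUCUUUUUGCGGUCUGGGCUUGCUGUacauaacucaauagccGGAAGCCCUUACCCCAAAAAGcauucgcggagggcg

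Mir135a-1: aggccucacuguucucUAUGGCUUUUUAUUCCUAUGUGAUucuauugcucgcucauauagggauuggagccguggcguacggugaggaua

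Mir135a-2: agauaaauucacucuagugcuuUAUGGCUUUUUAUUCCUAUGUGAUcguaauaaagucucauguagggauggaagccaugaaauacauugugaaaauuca

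Mir135b: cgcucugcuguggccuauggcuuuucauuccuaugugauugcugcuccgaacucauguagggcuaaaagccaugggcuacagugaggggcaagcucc

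Mir129-1 and Mir129-2 shared 26 nt across the 5p arm and a further 21 nt across the 3p arm. Against miR-129-2-3p the Mir129-1 hairpin differed by the single substitution C20U, counted from 1 at the 5′ end of the mature product. Mir135a-1 and Mir135a-2 shared 24 nt, which covers the whole 5p product, while their 3p arms held no shared window. Mir135b shared no 21 nt window, and its longest run in common with another counted hairpin was 14 nt, with Mir135a-1. Against miR-135a-5p the Mir135b hairpin differed by the single substitution U11C. The 3p arms differed more, since miR-135a-2-3p had 6 differences from the Mir135a-1 hairpin, G2A in the seed among them, and 5 from the Mir135b hairpin, A8C among them. No hairpin outside the families shared more than 12 nt with a member in the same orientation.

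**Figure D1:**
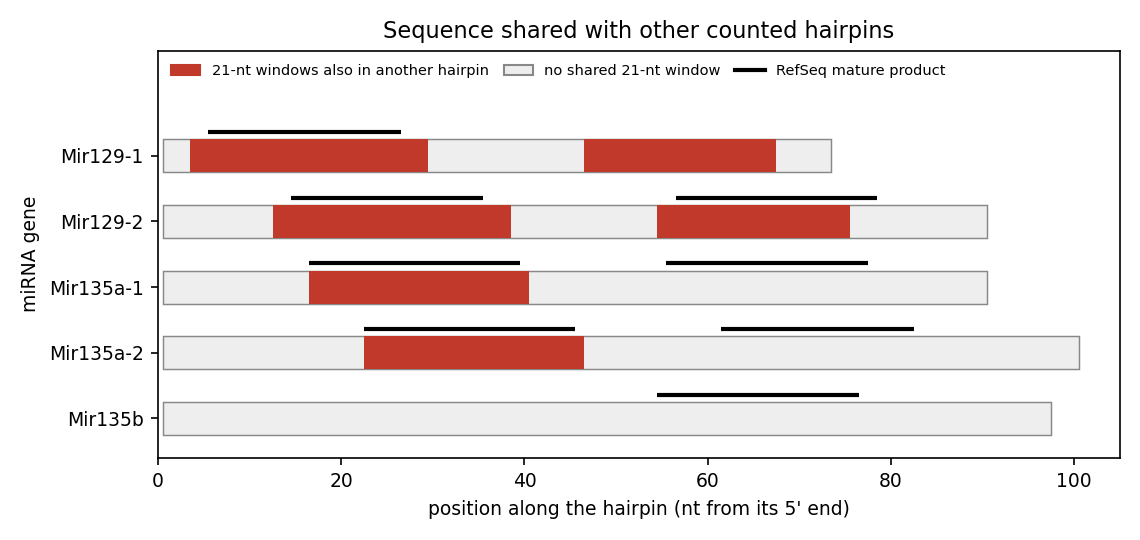
Map of the 5 hairpins by position (nt from the 5′ end), with stretches made of 21 nt windows found in another counted hairpin in red, other sequence in grey and RefSeq mature products as black lines. Mir129-1 and Mir129-2 each carry 2 shared stretches, Mir135a-1 and Mir135a-2 carry 1 each, and Mir135b carries none.

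Reads with several matches were set apart from the gene counts, so a read inside a shared stretch adds to neither copy where the aligner finds both. The aligner's settings are not given in the sources used here. Products of both arms are in each gene's count, and arms were not analysed here. Levels of Mir129-1, Mir129-2, Mir135a-1 and Mir135a-2 therefore describe the reads that were placed, while Mir135b has no 21 nt window in common with a counted hairpin.

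The 5 genes lie on 5 chromosomes of mm10. Mir129-1 (ENSMUSG00000065469.1) lies on chromosome 6, positions 29022619 to 29022691, plus strand, and overlaps an exon of the long noncoding RNA gene Gm3294 on the same strand. Mir129-2 (ENSMUSG00000065511.1) lies on chromosome 2, positions 94241364 to 94241453, minus strand, in an intron of the noncoding gene Mir670hg. Another microRNA gene, Mir129b, is annotated on the opposite strand inside Mir129-2, at positions 94241378 to 94241442.

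Mir135a-1 (ENSMUSG00000065407.1) lies on chromosome 9, positions 106154124 to 106154213, plus strand, in an intron of the noncoding gene D030055H07Rik. On the opposite strand it overlaps an exon of Glyctk, which encodes glycerate kinase. Mir135a-2 (ENSMUSG00000065524.1) lies on chromosome 10, positions 92072086 to 92072185, minus strand, in an intron of Rmst, a long noncoding RNA gene known from neurogenesis. Mir135b (ENSMUSG00000065435.1) lies on chromosome 1, positions 132198088 to 132198184, plus strand, in an intron of Lemd1 and of the overlapping gene AC124108.1. Hairpin lengths ran from 73 to 100 nt, and GC content from 33.0% in Mir135a-2 to 53.6% in Mir135b, against medians of 89.0 nt and 50.8% over the 2202 counted hairpins. Beyond Mir129b, no other counted microRNA gene lay within 10 kb of a member.

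Replicate 1 held 2322520 same-strand counts on microRNA genes and replicate 2 held 3414105, and levels are given in CPM, counts per 1000000 of these. The floor used for a gene without reads is 3 counts, equal to 1.29 CPM in the first library and 0.879 CPM in the second. Multimapping reads made up 42.6% and 46.0% of the libraries. Among markers, 4 neuron-enriched genes summed to 29136 CPM in the first library and 42428 CPM in the second, with members in both directions. Of these, Mir128-1 stood at 4518 and 16906 CPM and Mir137 at 8697 and 12170 CPM, whereas Mir132 stood at 11112 and 10719 CPM and Mir138-1 at 4809 and 2633 CPM. Mir128-1 and Mir138-1 share 18 nt or more with another counted hairpin. The 4 microglia and leukocyte genes, 3 of them detected, summed to 676 and 1100 CPM, also with members in both directions. Most of this sum was Mir150, at 569 and 966 CPM. Mir142 (63.3 and 93.1 CPM) and Mir223 (0.431 and 7.91 CPM) were also higher in replicate 2, and Mir155 (43.1 and 33.4 CPM) was lower. The sum of the 3 erythrocyte genes was lower in replicate 2 (1922 and 1149 CPM) through Mir451a, at 1807 and 1007 CPM. Mir144 (94.7 and 121 CPM) and Mir486 (20.7 and 21.4 CPM) were not lower. Sums were also lower for the 3 sensory and thalamic genes (133 and 42.8 CPM). The same held for the 3 genes of striated muscle and cerebellum (55.1 and 24.0 CPM, with Mir1a-1 and Mir1a-2 at 0). Liver Mir122 was lower as well (52.1 and 40.7 CPM). Endothelial Mir126a was at 14889 and 12474 CPM, and the 2 mural genes summed to 6456 and 6935 CPM. The 2 oligodendrocyte genes summed to 4358 and 2676 CPM, mostly through Mir219a-2, at 2447 and 865 CPM. Mir219a-2 shares 18 nt or more with another counted hairpin, and Mir338 stood at 1911 and 1811 CPM. The 7 genes of choroid plexus and other epithelium summed to 1079 and 1112 CPM, with members in both directions. Of these, Mir34c stood at 382 and 167 CPM and Mir204 at 590 and 738 CPM. The 5 hindbrain and Hox-embedded genes summed to 22.4 and 14.4 CPM, with Mir196a-1 at 0 in both. The part of these differences in the results below was not tested. In bulk tissue, fewer cells of a type and less RNA per cell cannot be told apart.

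In placed reads the miR-129 family was the more abundant of the pair, and Mir129-2 carried most of its counts. Mir129-2 had 1604 counts in replicate 1 and 3318 in replicate 2. These equal 691 CPM (Wilson 95% interval 658 to 725) and 972 CPM (939 to 1005), with a mean of 831 ± 199 CPM (SD, n = 2). In both libraries Mir129-2 was the highest member, and 96 of the 401 detected genes had a higher mean. Detected genes are those that reached 2 CPM in each library.

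Mir129-1 had 225 counts in replicate 1 and 551 in replicate 2. These equal 96.9 CPM (Wilson 95% interval 85.0 to 110) and 161 CPM (148 to 175), with a mean of 129 ± 45.6 CPM (SD, n = 2). It stood near the middle of the detected genes, with 54.4% of them at a lower mean. Mir129-2 made up 87.7% of the family's counts in replicate 1 (Wilson 95% interval 86.1 to 89.1) and 85.8% in replicate 2 (84.6 to 86.8). The difference in share between the libraries did not pass after adjustment (Fisher's exact p = 0.0471, adjusted p = 0.0964 over 5 shares). Since the copies share both long stretches described above, the split is one between placed reads.

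The miR-135 family was low in placed reads, and its 3 genes differed in level. Reads of miR-135a-5p match both Mir135a-1 and Mir135a-2, whereas Mir135b shares no 21 nt window with a counted hairpin. Counts of the 3 genes may therefore cover different products, and their levels are not strictly like for like. Mir135a-2, in the Rmst intron, had 109 counts in replicate 1 and 166 in replicate 2. These equal 46.9 CPM (Wilson 95% interval 38.9 to 56.6) and 48.6 CPM (41.8 to 56.6), with a mean of 47.8 ± 1.20 CPM (SD, n = 2). The intervals of the libraries overlap almost wholly.

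Mir135b had 42 counts in replicate 1 and 39 in replicate 2, in spite of the larger second library. These equal 18.1 CPM (Wilson 95% interval 13.4 to 24.4) and 11.4 CPM (8.36 to 15.6), with a mean of 14.8 ± 4.71 CPM (SD, n = 2). Replicate 1 was the higher library for this gene, and the intervals overlap. Mir135a-1 had the fewest counts, 15 in replicate 1 and 24 in replicate 2. These equal 6.46 CPM (Wilson 95% interval 3.91 to 10.7) and 7.03 CPM (4.72 to 10.5), with a mean of 6.74 ± 0.404 CPM (SD, n = 2). Its level lay above the 3-count floor in both libraries, and 17.7% of detected genes had a lower mean.

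Within the miR-135 family, Mir135a-2 held 65.7% of counts in replicate 1 (Wilson 95% interval 58.2 to 72.5) and 72.5% in replicate 2 (66.4 to 77.9). Mir135b held 25.3% (19.3 to 32.4) and 17.0% (12.7 to 22.4), and Mir135a-1 held 9.04% (5.55 to 14.4) and 10.5% (7.14 to 15.1). None of the 3 shares passed Fisher's exact test between the libraries, with adjusted p = 0.189 for Mir135a-2, 0.0964 for Mir135b and 0.733 for Mir135a-1 over 5 shares. A share that did not pass is not shown to be equal in the libraries, and the intervals of the Mir135b share overlap. All 3 are shares of placed reads.

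**Figure D2:**
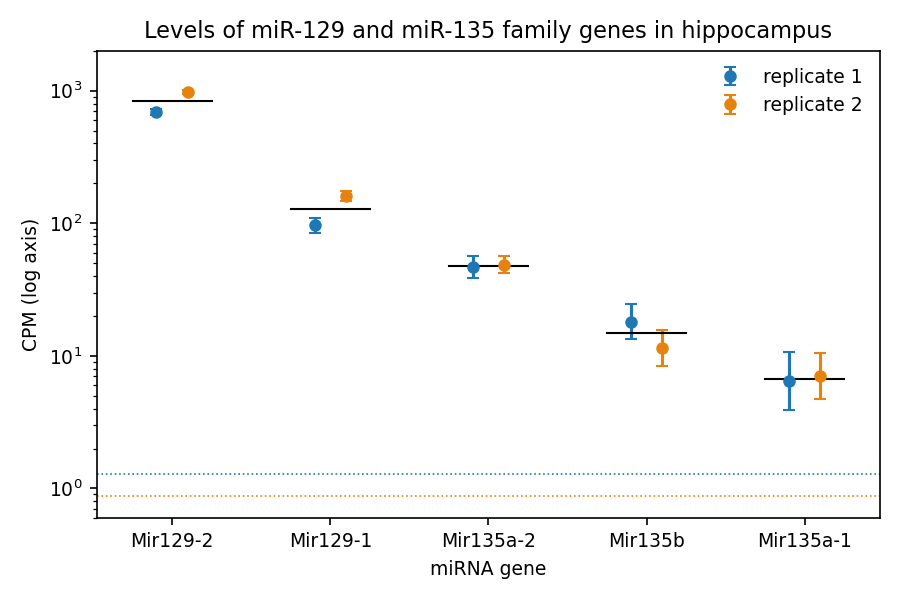
CPM on a log axis of each member in replicate 1 (blue) and replicate 2 (orange), with Wilson 95% intervals as bars, the mean as a black line and the 3-count floor of each library as a dotted line. Levels fall from Mir129-2, at a mean of 831 CPM, to Mir135a-1, at 6.74 CPM, and every point lies above its floor.

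Summed over genes, the miR-129 family stood at 788 CPM in replicate 1 (Wilson 95% interval 752 to 824) and 1133 CPM in replicate 2 (1098 to 1169), a mean of 960 ± 244 CPM (SD, n = 2). The miR-135 family stood at 71.5 CPM (61.4 to 83.2) and 67.1 CPM (58.9 to 76.3), a mean of 69.3 ± 3.11 CPM (SD, n = 2). Replicate 2 was the higher library for the first family and not for the second. The 2 families together held 0.0859% and 0.120% of microRNA counts.

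The family sums leave out reads set apart as multimapping, and how many of those came from each family was not tested. Among placed reads, the miR-129 sum exceeded the miR-135 sum 11.0-fold in replicate 1 and 16.9-fold in replicate 2. The mean log2 ratio was 3.77 ± 0.44 (SD, n = 2). The direction was shared by both libraries, and with 2 libraries the smallest two-sided sign-flip p is 0.5, so no p is given for the ratio. The miR-129 part of all member counts was 91.7% in replicate 1 (Wilson 95% interval 90.4 to 92.8) and 94.4% in replicate 2 (93.7 to 95.1). This share differed between the libraries by Fisher's exact test (adjusted p = 0.000319 over 5 shares), with an odds ratio of 1.53.

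By mean CPM the order was Mir129-2, Mir129-1, Mir135a-2, Mir135b and Mir135a-1, and it held in each library. Neighbours in this order were compared within each library by a two-sided exact binomial test of equal counts, adjusted over 8 tests, of which 7 passed. Mir129-2 exceeded Mir129-1 7.13-fold in replicate 1 (exact 95% interval 6.20 to 8.23) and 6.02-fold in replicate 2 (5.50 to 6.60). Mir129-1 exceeded Mir135a-2 2.06-fold (1.64 to 2.62) and 3.32-fold (2.79 to 3.97).

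Within the miR-135 family the highest member in placed reads stood apart in both libraries. Mir135a-2 exceeded Mir135b 2.60-fold in replicate 1 (exact 95% interval 1.80 to 3.80) and 4.26-fold in replicate 2 (2.99 to 6.20). Mir135b exceeded Mir135a-1 2.80-fold in replicate 1 (1.52 to 5.44). In replicate 2 that ratio was 1.62-fold (0.953 to 2.82; adjusted exact binomial p = 0.0769), so the lowest neighbours were not separated there. A microRNA read spans a whole mature product, so counts were not divided by length in these ratios. Per 100 nt of hairpin the order was unchanged, from a mean of 924 CPM for Mir129-2 and 177 CPM for Mir129-1 to 7.49 CPM for Mir135a-1.

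Strand decided the value of 1 member. In the column that counts both strands together, Mir129-2 kept 10 of its 1604 counts in replicate 1 and 11 of its 3318 in replicate 2. The loss was 99.4% and 99.7%. The 1594 and 3307 reads lost equal the counts of Mir129b in the opposite-strand column, which are reads on the strand of Mir129-2. On its own strand Mir129b had 0 counts in replicate 1 and 1 in replicate 2, under the 3-count floor. Mir129-1, Mir135a-1, Mir135a-2 and Mir135b had identical counts in both columns. Over all detected genes, 27 of 401 (6.73%) lost more than 50% of their counts in that column. With it, the miR-129 sum fell to 143 CPM and its log2 ratio over the miR-135 sum to 0.90.

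**Figure D3:**
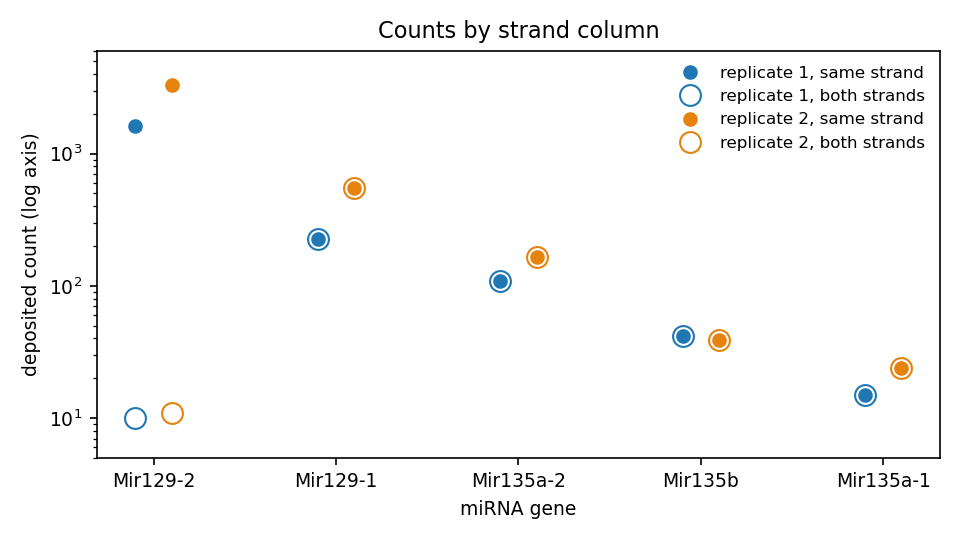
Deposited counts on a log axis of each member in the same-strand column (filled) and in the column for both strands together (open), for replicate 1 (blue) and replicate 2 (orange). The columns coincide for 4 members, and for Mir129-2 the open symbols stand at 10 and 11 against 1604 and 3318.

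Between the replicates, both miR-129 genes were higher in replicate 2 and no miR-135 gene passed the test. The test was an exact binomial test for each of the 401 detected genes, two-sided, with library sizes scaled by TMM and p-values adjusted by Benjamini-Hochberg. Of these, 50.9% were called, 28.2% higher and 22.7% lower in replicate 2. Of the members 2 of 5 were called, both higher, and nothing particular to the members is read from a count of this size. The background moved with the filter, from 29.4% of 715 genes with none, where 2 of 5 members were called, to 63.9% of 299 genes at 10 CPM, where 3 of 4 were. The test compares 2 libraries, not conditions.

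Mir129-1 was 1.64-fold higher in replicate 2 (exact 95% interval 1.40 to 1.92; adjusted exact binomial p = 5.88e-10). Mir129-2 was 1.38-fold higher (1.30 to 1.47; adjusted exact binomial p = 1.46e-26). The copies moved in one direction, by log2 ratios of 0.71 and 0.47, and 80.0% and 68.6% of detected genes had a smaller difference in either direction. In the column for both strands together Mir129-2 had a log2 ratio of -0.43, from 10 and 11 counts (adjusted exact binomial p = 0.669).

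Mir135a-2 had a replicate 2 to replicate 1 ratio of 1.02 (exact 95% interval 0.795 to 1.31; adjusted exact binomial p = 0.940). Only 1.75% of detected genes had a smaller difference, although a change of up to 1.31-fold lies within the interval. The Mir135a-1 ratio was 1.07 (0.539 to 2.19; adjusted exact binomial p = 0.914), an interval that spans a 2.19-fold rise at 15 and 24 counts. For Mir135b the ratio was 0.621 (0.391 to 0.983; exact binomial p = 0.0406, adjusted p = 0.0767). It was called lower in replicate 2 when the genes tested were limited to those at 10 CPM or more in both libraries (adjusted exact binomial p = 0.0366).

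**Figure D4:**
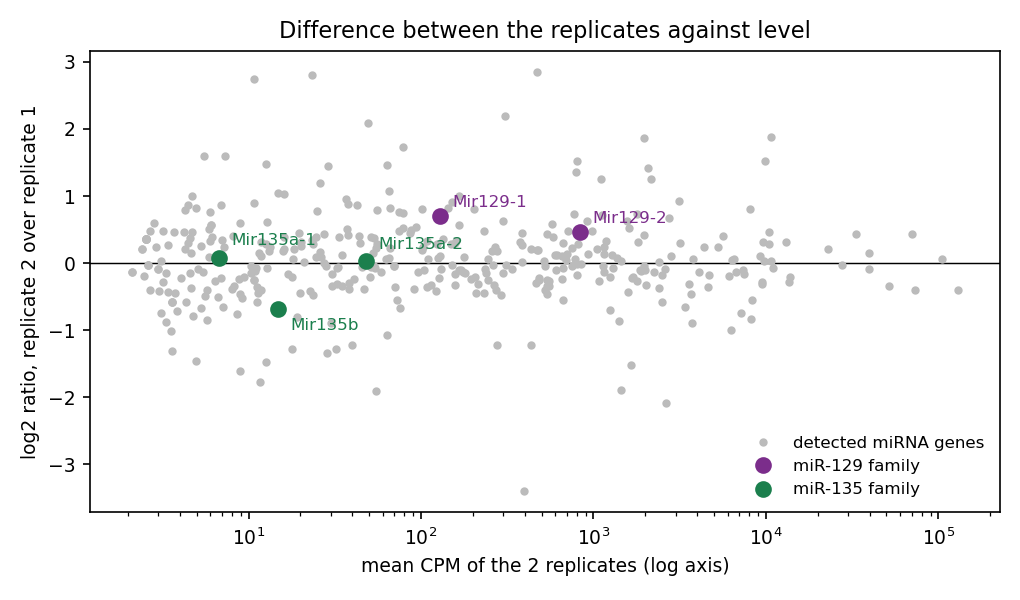
Log2 ratio of replicate 2 over replicate 1 against mean CPM (log axis) for the 401 detected microRNA genes (grey), with miR-129 genes in purple and miR-135 genes in green. Mir129-1 and Mir129-2 lie above 0 at 0.71 and 0.47, Mir135a-1 and Mir135a-2 near 0, and Mir135b below at -0.69.

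Beside other microRNA genes tied to plasticity, Mir129-2 stood in the upper part. Mir129-1 and the miR-135 genes stood lower, with Mir129-1 and Mir135a-2 in adjacent places. The list held 32 genes, 12 tied to homeostatic scaling and 20 to long-term potentiation or depression, and 28 were detected, with a median of 326 CPM. Its 4 highest were Mir191, Mir132, Mir137 and Mir125a. Mir191, reported beside miR-135 in long-term depression, was at 11485 and 14484 CPM in replicates 1 and 2. Mir132, induced by neuronal activity, stood at 11112 and 10719 CPM. Mir137, known to act in glutamate receptor signalling, was at 8697 and 12170 CPM, and Mir125a, known to repress the scaffold mRNA Dlg4, at 5854 and 10403 CPM.

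Of the 32 genes, 7 had a higher mean than Mir129-2, and among all 37 genes, members included, it was in place 8. Mir129-1 followed in place 22 and Mir135a-2 in place 23. Mir135b was in place 29 and Mir135a-1 in place 32. Below Mir135a-1 stood 5 genes, Mir223, Mir124a-1, Mir124a-3, Mir19a and Mir124a-2, of which all but Mir124a-1 were not detected. Mir223, a microRNA of myeloid cells, had 0.431 CPM in the first library and 7.91 CPM in the second. These places rest on placed reads, since 15 of the 32 genes share 18 nt or more with another counted hairpin, the Mir124a genes among them.

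In the replicate comparison, 19 of the 28 detected list genes were called, 12 higher and 7 lower in replicate 2, beside 50.9% of all detected genes. The background was not matched for level, and 63.9% of all genes at 10 CPM or more were called. Nothing particular to the list is read from these counts. Of the scaling genes 5 of 10 detected were called, 3 higher and 2 lower. Of the potentiation and depression genes 14 of 18 were called, 9 higher and 5 lower. Among the listed genes Mir26a-1, singled out after its values were seen, differed 7.01-fold, a wider gap than in any member. The median difference was 1.24-fold over the list, 1.26-fold over all detected genes and 1.38-fold over the 5 members.

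**Figure D5:**
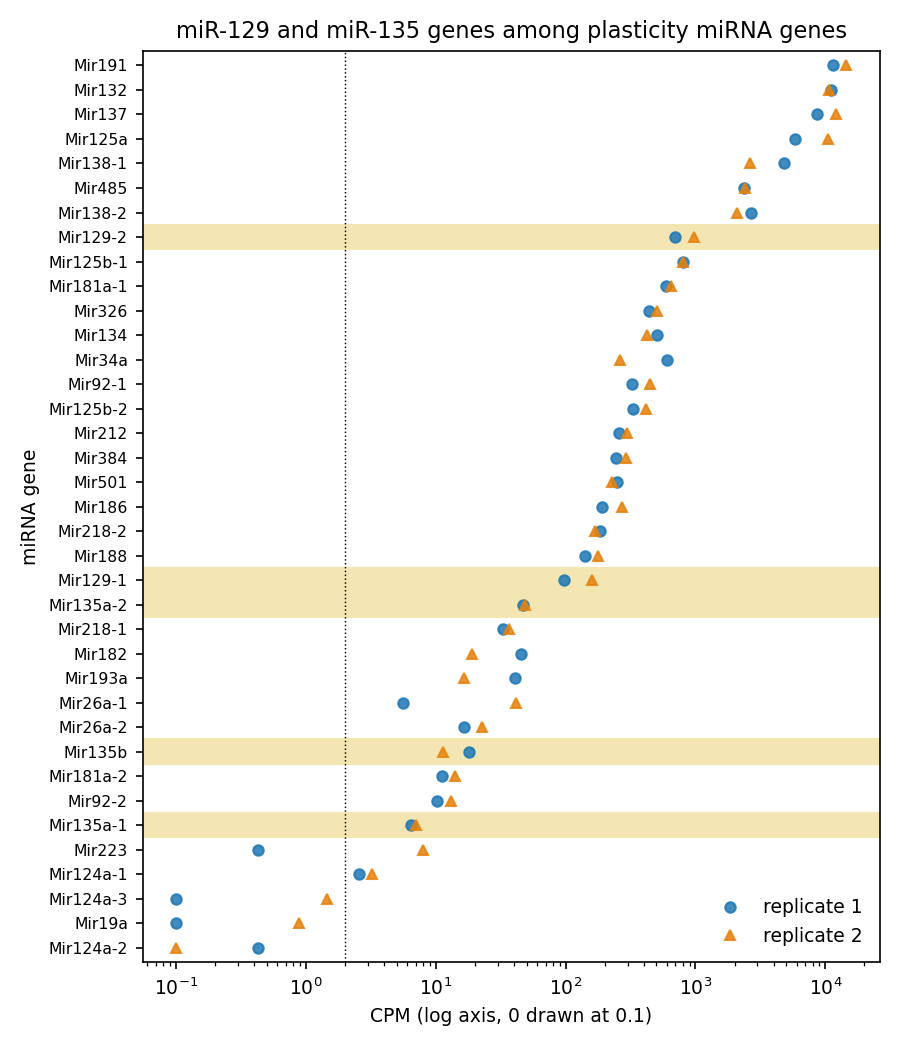
CPM on a log axis (0 drawn at 0.1) of the 5 members (shaded) and the 32 listed plasticity genes in replicate 1 (blue circles) and replicate 2 (orange triangles), ordered by mean, with the 2 CPM detection limit dotted. Mir129-2 is in place 8 of 37 and Mir135a-1 in place 32.

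The genes nearest to each member in mean CPM over the 2 libraries differed in how well their replicates matched. Next to Mir129-2 stood Mir322, at 839 and 847 CPM, and Mir140, at 724 and 898 CPM. Next to Mir129-1 stood Mir702, at 133 and 127 CPM, and Mir505, at 122 and 134 CPM. In each case the replicates of both neighbours lay closer together than those of the miR-129 gene.

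Next to Mir135a-2 stood Mir200b, at 18.5 and 80.5 CPM, and Mir8112, at 45.2 and 47.7 CPM. Next to Mir135b stood Mir9-1, at 9.47 and 20.2 CPM, and Mir192, at 12.1 and 14.6 CPM. Next to Mir135a-1 stood Mir8111, at 7.32 and 6.44 CPM, and Mir7059, at 7.75 and 5.57 CPM. Mir8111, Mir8112 and Mir9-1 share 18 nt or more with another counted hairpin.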

How the data were processed

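Small RNA of hippocampus was sequenced in 2 libraries of one group, with a size range under 30 nt per the labels. The deposited values are raw counts of reads per miRNA gene, with assembly mm10 and annotation M21 per the deposited description files. The files name no columns, and their roles (both strands, the gene's strand, the opposite strand) were read from the values. The aligner and counter are not given in the sources used here. The same-strand column was used. Its 4 rows that name no gene were left out of library sizes and tests, and held 16.2%, 42.6%, 5.16% and 0% (unmapped, multimapping, no feature, ambiguous) of replicate 1 and 15.1%, 46.0%, 4.70% and 0% of replicate 2. CPM, TMM factors (edgeR 4.0.16, R 4.3.3) and exact binomial and Fisher's exact tests (SciPy 1.17.1, two-sided, threshold 0.05, Benjamini-Hochberg) were computed from the counts, with 0.5 added to counts for log2 ratios. DESeq2 1.42.0 size factors, other totals, filters and the both-strands column were alternatives. The binomial comparison was tested on simulated data with counting error alone. Symbols and positions came from GENCODE M21, sequences from RefSeq. All 5 members were named, with the genes next to each in mean CPM, overlapping genes and the 4 highest of the plasticity list. Mir92a genes were matched as Mir92-1 and Mir92-2 by synonym. Members and lists were chosen with earlier results of these data known.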

Additional observations from a re-analysis of the deposited data

Results flagged for a closer look

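Multimapping reads, kept apart from the gene counts, numbered 2743569 in replicate 1 and 4604517 in replicate 2, against a floor of 3 counts. Their sources were not measured, and how many came from miR-129-5p or miR-135a-5p was not tested. In the column for both strands, 1594 reads of Mir129-2 in replicate 1 and 3307 in replicate 2 were assigned to no gene, or 0.935% and 1.31% of the ambiguous reads there. These results were listed because they are signal outside the column used for the levels.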

How the results depend on the processing

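Over 11 results, 57 alternatives were run, and 48 stayed within the replicate spread or 1.5 times the count, or on the same side of the threshold. The Mir135a-2 replicate log2 ratio, called under none, ran from -0.02 to 0.05. The miR-129 sum was 335 per 1000000 of all reads, 1681 CPM without the 5 most abundant genes in the total and 143 CPM with both strands together. The miR-135 sum was 24.3, 122 and 74.8 under the same settings. The log2 ratio of the sums was 0.90 with both strands together, where Mir129-2 loses its counts to ambiguity, and the Mir129-2 replicate log2 ratio turned to -0.43. Mir135b passed the threshold at 10 CPM or more in both libraries, with a log2 ratio of -0.73 and adjusted exact binomial p from 0.0366 there to 0.128 over its alternatives. Leaving out 1 replicate gave 788 to 1133 CPM for the miR-129 sum, 67.1 to 71.5 CPM for the miR-135 sum and log2 ratios of 3.46 to 4.08. With 2 libraries such values always lie within 1 SD of the mean. They are among the 48, but this setting could not have moved them. The number of genes called between the replicates ran from 155, without genes sharing 18 nt, to 210, without a filter, and members detected from 4 at 10 CPM to 5. All 5 members and 28 of the 32 list genes were detected as reported. Neither count could rise 1.5-fold, and a looser setting could not lower it. As a share of the genes tested, the calls were lowest without a filter, at 29.4%, and highest at 10 CPM, at 63.9%. The 48 rest on the number called, not on this share. The filter at 10 CPM leaves out Mir135a-1, and the setting without genes sharing 18 nt leaves Mir135b as the only member. No paired analysis was possible because there is 1 group. Mir135a-1 and Mir135b, at 15 to 42 counts, are limited by depth.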
